A study of Saccharomyces cerevisiae with 14 samples.

Results

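The genes described here encode the machinery that carries proteins into mitochondria and processes them there. They were chosen by symbol in the annotation of the array, 1 probe set per gene, and all 36 genes of the list were found, each with exactly 1 probe set, among 5449 S. cerevisiae genes read by the array. By the place of their proteins, 13 belong to the outer membrane, 7 to the intermembrane space, 14 to the inner membrane and 2 to the matrix. RNA was taken from M2 nsf1∆ and from M2 during the fermentation of Riesling must, and it was hybridized to 14 Affymetrix Yeast Genome 2.0 arrays, 7 per strain. M2 is an industrial wine yeast, a MATa/α diploid, and in M2 nsf1∆ both copies of NSF1, which encodes a zinc-finger regulator, are replaced by the kanMX4 marker. Each strain was sampled at 24 h, at 20% and at 85% of sugars fermented, with 2, 2 and 3 arrays, which the labels number as biological replicates. The samples are bulk RNA of a culture, so that a change in the share of cells and a change in RNA per cell cannot be told apart.

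Nearly all mitochondrial proteins are made in the cytosol and carry signals that direct them to the organelle. Most enter through the TOM complex of the outer membrane, whose receptors hand them to the Tom40 channel. From there, β-barrel proteins are set into the outer membrane by the SAM complex, small cysteine-rich proteins are folded in the intermembrane space by the Mia40 and Erv1 disulfide relay, carriers are inserted into the inner membrane by the TIM22 complex, and proteins with a presequence pass the TIM23 complex, pulled by an import motor. Presequences are removed in the matrix by the Mas1 and Mas2 peptidase, and sorting signals at the inner membrane by Imp1 and Imp2.

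The values are RMA log2 intensities, so that 1 unit is a doubling. RMA scales the arrays to one another, and a change is therefore relative to the other genes of the same array. The background was read from 1746 probe sets of S. pombe genes, whose 95th percentile was 3.62. The members lay between 6.76 and 13.55 on every array, so that none was near background, and the array medians lay between 8.87 and 8.96. In M2 nsf1∆ the probe set of NSF1 read 2.95 and 3.58 (24 h), 3.52 and 4.28 (20%) and 3.63, 3.95 and 5.90 (85%), all far below the M2 arrays, which ran between 8.92 and 13.19. The array of M2 nsf1∆ at 85% replicate 3 thus read NSF1 above the other deletion arrays, and the counts over all 36 genes that rest on it are given below with and without it. Of 10 haploid-specific genes, 9 rose from 24 h to 85% in M2 nsf1∆ and 9 in M2, and of 12 sporulation genes 11 and 10 rose. Over all probe sets tested, 37.0% rose in M2 nsf1∆ and 38.0% in M2. HOP1 fell in both strains and FAR1 fell in M2 nsf1∆, while FAR1 and DIT2 did not pass in M2. STE18 and NEJ1 read below the background percentile of 3.62 on every array at 24 h. The mean level of the haploid-specific genes lay between 5.51 and 5.67 at 24 h and between 7.19 and 7.33 at 85% in M2 nsf1∆, and between 5.43 and 5.45 and between 6.96 and 7.17 in M2. These markers moved with the stages at which the genes below moved, and their part in the changes was not tested.

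Over the whole fermentation the import genes did not move as 1 block. Between 24 h and 85%, 12 of 36 rose and 13 fell in M2 nsf1∆, and 15 rose and 9 fell in M2 (limma, adjusted p under 0.05 over 5498 probe sets). Over all probe sets tested, 37.0% rose and 36.0% fell in M2 nsf1∆, and 38.0% rose and 35.2% fell in M2, so that the counts of members lie near these shares, apart from the 9 falls in M2, which lie below them. Without M2 nsf1∆ at 85% replicate 3, 11 rose and 12 fell in M2 nsf1∆. The median log2 change of the members was -0.05 in M2 nsf1∆ and 0.11 in M2, beside 0.02 and 0.05 over all probe sets. The same 12 members rose in both strains and the same 9 fell in both. Calls shared by the strains were not counted over all probe sets. The change had the same sign in both strains for 32 of 36 members and for 89.5% of all probe sets. The strains share no array, and across the 36 genes their changes had r = 0.95, as did those of all 5498 probe sets, which describes genes that are not independent replicates. Within the TOM complex, the import motor and the inner membrane peptidase, some genes rose while others fell.

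**Figure D1:**
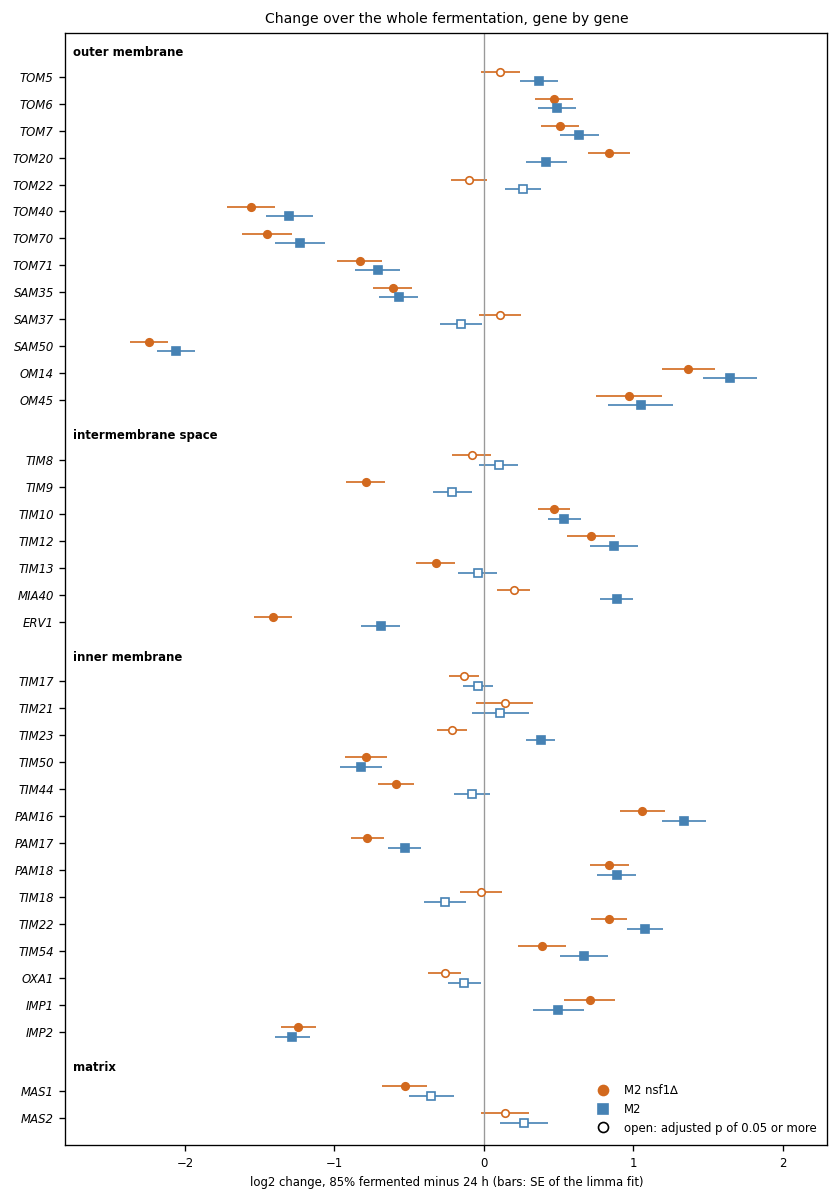
Log2 change at 85% of sugars fermented minus 24 h (x axis) for the 36 import genes (y axis), grouped by the place of the protein, in M2 nsf1∆ (circles, above) and M2 (squares, below). Bars are the SE of the limma fit and open symbols did not pass the threshold. SAM50 lies farthest to the left, at -2.24 in M2 nsf1∆ and -2.06 in M2, and OM14 farthest to the right, at 1.37 and 1.65.

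By side, the outer membrane had 5 rises and 5 falls among 13 genes in M2 nsf1∆, and 6 and 5 in M2, with medians of 0.11 and 0.26. The inner membrane had 5 rises and 4 falls among 14 in M2 nsf1∆, and 6 and 3 in M2, with medians of -0.07 and 0.04. The intermembrane space had 2 rises and 3 falls among 7 in M2 nsf1∆, and 3 and 1 in M2. Neither membrane moved in 1 direction, and the largest changes in either direction were those of outer membrane genes. SAM50 and OM14 set the ends of the outer membrane range, from -2.24 to 1.37 in M2 nsf1∆ and from -2.06 to 1.65 in M2. The inner membrane ran from -1.24 to 1.06 in M2 nsf1∆ and from -1.28 to 1.34 in M2, with IMP2 and PAM16 at its ends.

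In the TOM complex the channel gene and its small partners parted. TOM40, which encodes the channel itself, gave 10.64 and 10.93 at 24 h, 10.60 and 10.93 at 20%, then 9.44, 8.94 and 9.28 at 85% in M2 nsf1∆. In M2 it gave 10.60 and 10.42, 10.73 and 10.64, and 9.20, 9.07 and 9.35. Every array at 85% lay below every array of the earlier stages, and the 24 h and 20% arrays of M2 nsf1∆ overlapped. The fall to 85% against 24 h was 2.95-fold in M2 nsf1∆ (log2 change -1.56, SE 0.16, adjusted p = 1.4e-06) and 2.47-fold in M2 (-1.30, SE 0.16, adjusted p = 7.8e-06). The genes of the small subunits that stabilize or loosen the complex, TOM6 and TOM7, went the other way in both strains. TOM7 gave 11.43 and 11.35 at 24 h, 11.46 and 11.40 at 20%, then 11.91, 11.81 and 11.98 at 85% in M2 nsf1∆, and 11.26 and 11.44, 11.61 and 11.23, and 11.86, 12.01 and 12.10 in M2. It rose by 0.51 (SE 0.13) in M2 nsf1∆ and by 0.64 (SE 0.13) in M2, and TOM6 rose by 0.47 and by 0.49. TOM5 rose by 0.37 in M2 (adjusted p = 0.02), a call that was lost without M2 at 24 h replicate 1 (0.31, adjusted p = 0.12) or M2 at 85% replicate 2 (0.33, adjusted p = 0.057), and its change in M2 nsf1∆ was 0.11 (adjusted p = 0.47). The difference between these changes of TOM5, -0.26, did not pass (adjusted p = 0.5).

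The receptor genes were split as well. TOM70 encodes the receptor for carriers and other proteins without a presequence, and TOM71 its less abundant paralog. TOM70 gave 10.31 and 10.22 at 24 h, 9.85 and 9.98 at 20%, then 8.65, 8.60 and 9.19 at 85% in M2 nsf1∆, and 10.18 and 10.06, 9.85 and 9.96, and 8.73, 8.80 and 9.15 in M2. TOM71 gave 8.42 and 8.51, 8.28 and 8.31, and 7.83, 7.51 and 7.57 in M2 nsf1∆, and 8.33 and 8.45, 8.62 and 8.54, and 7.37, 7.93 and 7.72 in M2. Both paralogs were lowest at 85%, with no overlap with the earlier stages in either strain. TOM70 fell 2.73-fold in M2 nsf1∆ and 2.34-fold in M2 at 85% against 24 h, and TOM71 fell 1.77-fold and 1.64-fold. TOM20, whose product binds presequences, did the opposite. It gave 10.42 and 10.07 at 24 h, 10.66 and 10.56 at 20%, then 11.22, 11.05 and 11.00 at 85% in M2 nsf1∆, and 10.41 and 10.36, 10.70 and 10.33, and 10.83, 10.81 and 10.78 in M2. It rose by 0.84 (SE 0.14) in M2 nsf1∆ and by 0.42 (SE 0.14) in M2, and the M2 call was lost without M2 at 24 h replicate 2 (0.40, adjusted p = 0.072). The difference between these rises, 0.42, did not pass (adjusted p = 0.29). TOM22, the central receptor, passed in neither strain over the whole fermentation.

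**Figure D2:**
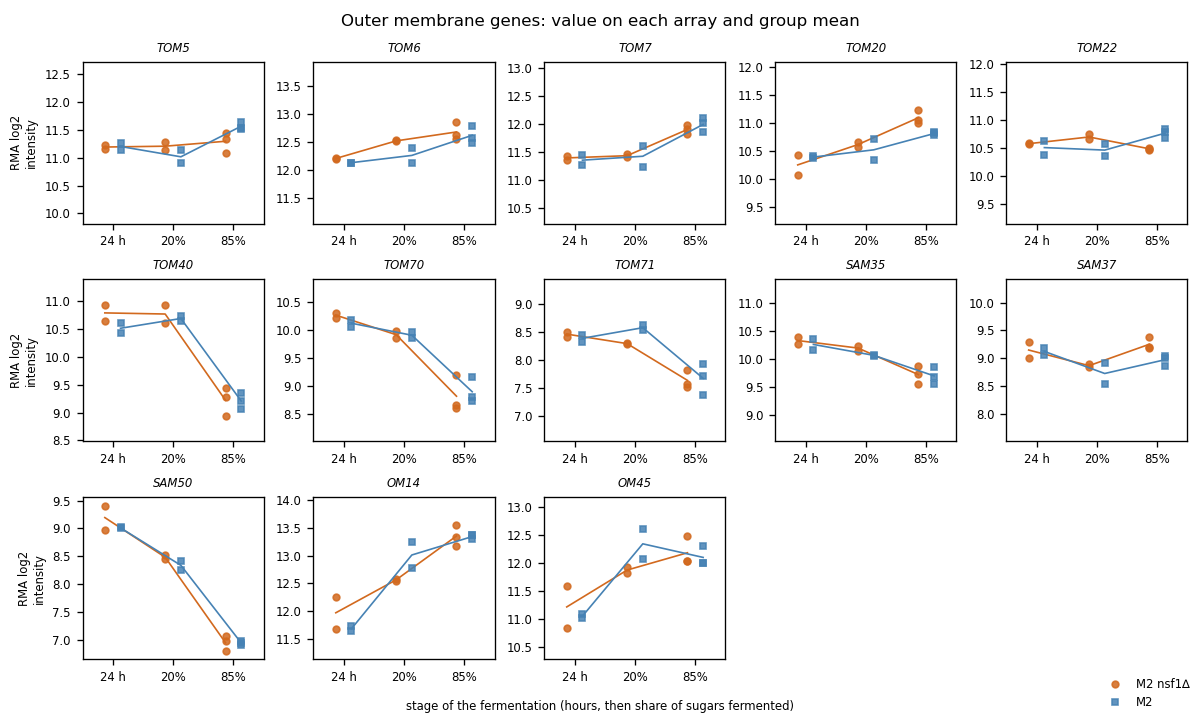
RMA log2 intensity (y axis, the same span in every panel) of the 13 outer membrane genes at the 3 stages (x axis) in M2 nsf1∆ (circles, left) and M2 (squares, right), with 1 point per array and lines through the group means. TOM40, TOM70 and SAM50 end at 9.44 or below on every array at 85%, and OM14 at 13.17 or above.

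SAM50, the core of the complex that inserts β-barrel proteins, had the largest change of all 36 genes in both strains. It gave 8.98 and 9.41 at 24 h, 8.45 and 8.52 at 20%, then 7.07, 6.81 and 6.98 at 85% in M2 nsf1∆. In M2 it gave 9.02 and 9.00, 8.42 and 8.26, and 6.95, 6.99 and 6.91. The 3 stages did not overlap in either strain, and SAM50 was the only member to fall at both steps in M2 nsf1∆. At 85% against 24 h it was 4.72-fold lower in M2 nsf1∆ (log2 change -2.24, SE 0.13, adjusted p = 9.1e-09) and 4.16-fold lower in M2 (-2.06, SE 0.13, adjusted p = 1.8e-08). SAM35, which recognizes the β-barrel signal, fell by 0.61 and by 0.57. The third gene of the complex, SAM37, changed by 0.11 (adjusted p = 0.50) in M2 nsf1∆ and by -0.15 (adjusted p = 0.34) in M2.

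OM14 and OM45 encode abundant outer membrane proteins that associate with porin. OM14 gave 11.69 and 12.26 at 24 h, 12.55 and 12.58 at 20%, then 13.55, 13.17 and 13.33 at 85% in M2 nsf1∆, and 11.64 and 11.74, 13.25 and 12.77, and 13.30, 13.36 and 13.36 in M2. OM45 gave 10.84 and 11.58, 11.81 and 11.93, and 12.48, 12.03 and 12.03 in M2 nsf1∆, and 11.08 and 11.01, 12.61 and 12.07, and 12.00, 12.30 and 11.99 in M2. For both genes the lowest values were those of 24 h, and M2 nsf1∆ at 24 h replicate 2 stood above replicate 1 by more than the other replicates of that strain differed. At 85% against 24 h OM14 was 2.59-fold higher in M2 nsf1∆ and 3.14-fold higher in M2, and OM45 was 1.96-fold and 2.07-fold higher. In M2 the early step, 20% against 24 h, brought rises of 1.32 (SE 0.19) for OM14 and 1.30 (SE 0.24) for OM45. In M2 nsf1∆ the early rises were 0.59 (SE 0.19) and 0.66 (SE 0.24), and both were lost without M2 nsf1∆ at 24 h replicate 1 (0.30, adjusted p = 0.29, and 0.29, adjusted p = 0.41), at 20% replicate 1 (0.60, adjusted p = 0.10, and 0.72, adjusted p = 0.11) or at 20% replicate 2 (0.57, adjusted p = 0.12, and 0.60, adjusted p = 0.18). The OM45 rise in M2 nsf1∆ was also lost with the replicate number as a block (0.66, adjusted p = 0.056) and without any of 5 further arrays (adjusted p up to 0.059). The difference between the strains at this step, -0.73 for OM14 (adjusted p = 0.23) and -0.64 for OM45 (adjusted p = 0.40), did not pass.

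In the intermembrane space the chaperone genes and the relay genes were divided. Tim9 and Tim10 form the chaperone that guides carriers across the space, and Tim12 docks it on the TIM22 complex. TIM12 gave 9.84 and 9.60 at 24 h, 9.74 and 9.53 at 20%, then 10.21, 10.52 and 10.60 at 85% in M2 nsf1∆, and 9.51 and 9.76, 9.74 and 9.37, and 10.45, 10.48 and 10.60 in M2. TIM10 gave 12.22 and 12.32, 12.63 and 12.49, and 12.74, 12.72 and 12.75 in M2 nsf1∆, and 12.14 and 12.09, 12.72 and 12.49, and 12.59, 12.70 and 12.67 in M2. The 24 h and 20% arrays of TIM12 overlapped and those of 85% lay above both, while TIM10 was higher than at 24 h on every later array. At 85% against 24 h TIM12 rose by 0.72 (SE 0.16) in M2 nsf1∆ and by 0.87 (SE 0.16) in M2, and TIM10 by 0.47 (SE 0.11) and by 0.54 (SE 0.11).

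TIM9, the partner of TIM10, gave 11.89 and 11.81 at 24 h, 12.14 and 11.93 at 20%, then 10.92, 11.02 and 11.23 at 85% in M2 nsf1∆, and 11.67 and 11.82, 12.18 and 12.01, and 11.38, 11.55 and 11.68 in M2. In M2 nsf1∆ the arrays at 85% lay below all earlier ones, while in M2 they reached the 24 h values. It fell by 0.79 (SE 0.13, adjusted p = 0.00012) in M2 nsf1∆ and changed by -0.21 (SE 0.13, adjusted p = 0.18) in M2. The difference between these changes, -0.58, did not pass (adjusted p = 0.13). TIM13, of the Tim8 and Tim13 chaperone, gave 10.63 and 10.56, 11.24 and 11.10, and 10.18, 10.38 and 10.25 in M2 nsf1∆, and 10.61 and 10.70, 11.14 and 10.87, and 10.59, 10.80 and 10.44 in M2. It was highest at 20%, then its change to 85% against 24 h, -0.32 in M2 nsf1∆ (adjusted p = 0.042), was lost when M2 nsf1∆ at 24 h replicate 1 (-0.29, adjusted p = 0.16) or another of 8 further arrays was left out. In M2 that change was -0.04 (adjusted p = 0.79), and the difference between the strains, -0.28, did not pass (adjusted p = 0.48). TIM8 passed in neither strain at 85% against 24 h.

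**Figure D3:**
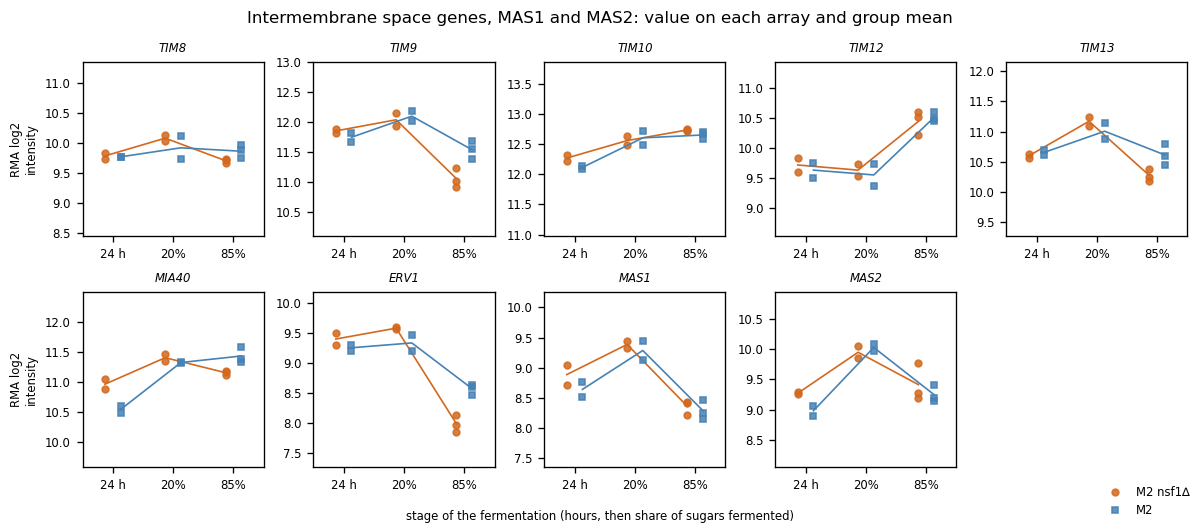
RMA log2 intensity (y axis, the same span in every panel) of the 7 intermembrane space genes and of MAS1 and MAS2 of the matrix at the 3 stages (x axis) in M2 nsf1∆ (circles, left) and M2 (squares, right), with 1 point per array and lines through the group means. At 85% ERV1 lies between 7.85 and 8.14 in M2 nsf1∆ and between 8.47 and 8.64 in M2.

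The disulfide relay is formed by the oxidoreductase Mia40 and by Erv1, the sulfhydryl oxidase that recharges it. ERV1 gave 9.50 and 9.29 at 24 h, 9.56 and 9.59 at 20%, then 7.97, 8.14 and 7.85 at 85% in M2 nsf1∆, and 9.30 and 9.20, 9.47 and 9.19, and 8.64, 8.60 and 8.47 in M2. MIA40 gave 10.88 and 11.05, 11.35 and 11.46, and 11.17, 11.18 and 11.12 in M2 nsf1∆, and 10.60 and 10.49, 11.31 and 11.34, and 11.33, 11.59 and 11.38 in M2. In both strains ERV1 was lowest at 85% without overlap, and MIA40 lowest at 24 h. ERV1 fell 2.65-fold in M2 nsf1∆ (log2 change -1.41, SE 0.13, adjusted p = 4.1e-07) and 1.61-fold in M2 (-0.69, SE 0.13, adjusted p = 0.0003) at 85% against 24 h. MIA40 rose 1.85-fold in M2 (0.89, SE 0.11, adjusted p = 9e-06), and its change in M2 nsf1∆ was 0.20 (SE 0.11, adjusted p = 0.14).

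At the inner membrane the parts of the TIM23 route did not move together. Tim50 is the receptor that takes presequence proteins over from the TOM complex, Tim23 and Tim17 form the channel, and the motor holds Tim44 and the J-proteins Pam16 and Pam18, which regulate the Hsp70 of the matrix, with Pam17. PAM16 gave 8.33 and 8.20 at 24 h, 9.04 and 8.92 at 20%, then 9.38, 9.29 and 9.32 at 85% in M2 nsf1∆, and 8.15 and 8.34, 9.15 and 8.61, and 9.52, 9.70 and 9.52 in M2. PAM18 gave 9.71 and 9.44, 9.76 and 9.75, and 10.39, 10.44 and 10.41 in M2 nsf1∆, and 9.76 and 9.49, 9.87 and 9.51, and 10.50, 10.59 and 10.47 in M2. PAM16 stood higher at each stage than at the one before, without overlap, in M2 nsf1∆ and in M2, although its late step passed in M2 (0.70) and not in M2 nsf1∆ (0.35, adjusted p = 0.051), and its early rise in M2 was lost without 20% replicate 1 (0.37, adjusted p = 0.075). PAM18 rose only at the late step in both strains. At 85% against 24 h PAM16 was 2.09-fold higher in M2 nsf1∆ (log2 change 1.06, SE 0.15) and 2.53-fold higher in M2 (1.34, SE 0.15), and PAM18 was 1.79-fold and 1.86-fold higher.

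The fellow motor gene PAM17 moved the opposite way. It gave 10.68 and 10.62 at 24 h, 10.87 and 10.79 at 20%, then 9.77, 9.95 and 9.90 at 85% in M2 nsf1∆, and 10.61 and 10.56, 10.76 and 10.61, and 10.02, 10.15 and 9.99 in M2. TIM50 gave 8.88 and 8.84, 8.85 and 9.10, and 8.09, 8.14 and 7.97 in M2 nsf1∆, and 8.94 and 9.03, 9.12 and 8.96, and 8.20, 8.37 and 7.91 in M2. Both genes were lower on every array at 85% than on any earlier one. PAM17 fell by 0.78 (SE 0.11) in M2 nsf1∆ and by 0.53 (SE 0.11) in M2, and TIM50 by 0.79 (SE 0.14) and by 0.82 (SE 0.14), at 85% against 24 h. TIM44, the anchor of the motor, fell by 0.59 (adjusted p = 0.00047) in M2 nsf1∆, while its change in M2 was -0.08 (adjusted p = 0.53), and the difference between the strains, -0.50, did not pass (adjusted p = 0.14).

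TIM23, the channel gene, gave 10.40 and 10.27 at 24 h, 10.81 and 10.82 at 20%, then 10.21, 10.15 and 10.02 at 85% in M2 nsf1∆, and 10.12 and 10.08, 10.87 and 10.85, and 10.51, 10.45 and 10.48 in M2. It was highest at 20% in both strains. At 85% its arrays lay below those of 24 h in M2 nsf1∆ and above them in M2, with changes of -0.21 (SE 0.10, adjusted p = 0.085) in M2 nsf1∆ and 0.38 (SE 0.10, adjusted p = 0.0044) in M2. The difference between these changes, -0.59, had an adjusted p of 0.061. TIM17 and TIM21, which links the TIM23 complex to the TOM complex and the respiratory chain, passed in neither strain over the whole fermentation.

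**Figure D4:**
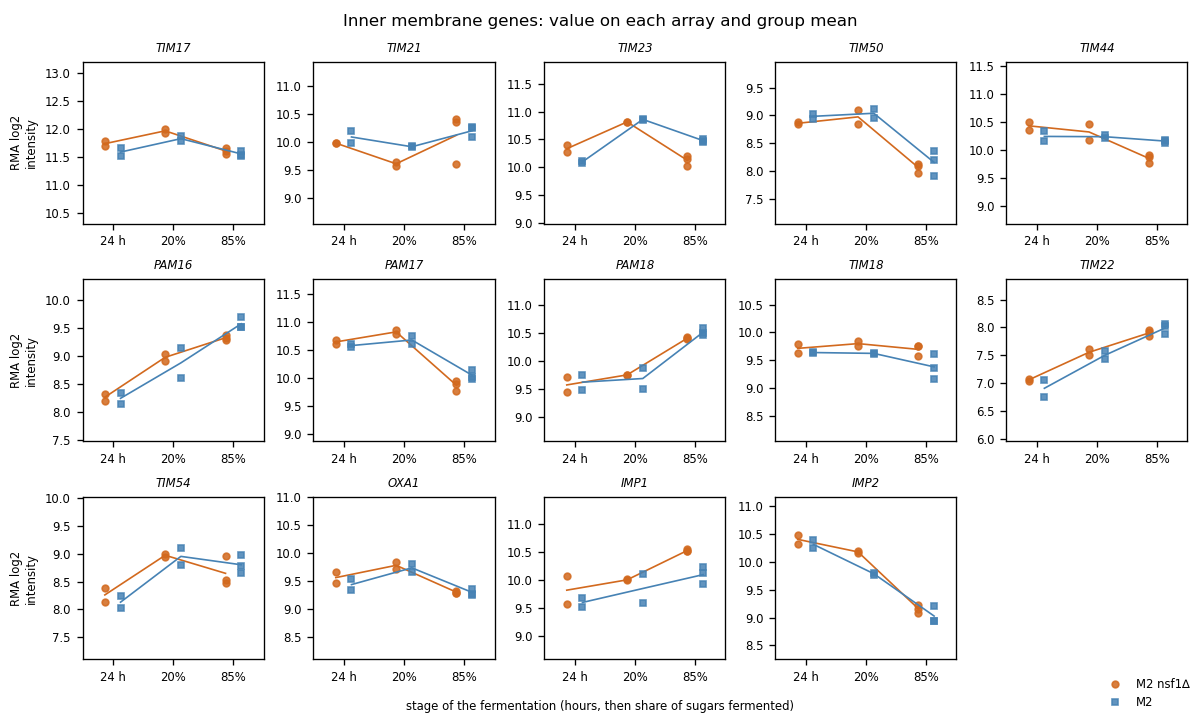
RMA log2 intensity (y axis, the same span in every panel) of the 14 inner membrane genes at the 3 stages (x axis) in M2 nsf1∆ (circles, left) and M2 (squares, right), with 1 point per array and lines through the group means. IMP1 ends between 10.51 and 10.55 in M2 nsf1∆ and between 9.93 and 10.23 in M2 at 85%, while IMP2 ends at 9.23 or below in both strains.

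Of the 3 genes of the carrier insertion complex, TIM22 and TIM54 rose. TIM22, the insertion channel, gave 7.08 and 7.04 at 24 h, 7.50 and 7.61 at 20%, then 7.84, 7.95 and 7.92 at 85% in M2 nsf1∆, and 7.06 and 6.76, 7.57 and 7.43, and 8.02, 8.06 and 7.89 in M2. Its stages did not overlap in either strain, and it rose at both steps in both, although in M2 nsf1∆ the early rise was lost without 20% replicate 2 (0.44, adjusted p = 0.076) and the late one without 20% replicate 1 (0.29, adjusted p = 0.14) or 85% replicate 2 (0.32, adjusted p = 0.057). Over the whole fermentation it was 1.79-fold higher in M2 nsf1∆ (log2 change 0.84, SE 0.12) and 2.11-fold higher in M2 (1.08, SE 0.12). TIM54, an associated subunit, rose by 0.67 (SE 0.16) in M2 and by 0.39 (SE 0.16, adjusted p = 0.046) in M2 nsf1∆, where the call was lost without M2 nsf1∆ at 24 h replicate 1 (0.27, adjusted p = 0.27) or at 85% replicate 3 (0.24, adjusted p = 0.18), as it was without any of 6 further arrays. TIM18 passed in neither strain, at -0.02 in M2 nsf1∆ and -0.26 in M2. OXA1, which inserts proteins from the matrix side, changed by -0.26 (adjusted p = 0.057) in M2 nsf1∆ and by -0.13 (adjusted p = 0.30) in M2.

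The catalytic subunits of the inner membrane peptidase parted in both strains. IMP1 gave 9.57 and 10.06 at 24 h, 10.01 and 9.99 at 20%, then 10.55, 10.52 and 10.51 at 85% in M2 nsf1∆, and 9.68 and 9.51, 10.10 and 9.59, and 10.12, 9.93 and 10.23 in M2. IMP2 gave 10.48 and 10.32, 10.19 and 10.16, and 9.08, 9.16 and 9.23 in M2 nsf1∆, and 10.38 and 10.24, 9.77 and 9.80, and 8.94, 9.21 and 8.93 in M2. IMP2 stood lower at each later stage without overlap, whereas IMP1 at 20% overlapped IMP1 at 24 h in M2 nsf1∆ and in M2. At 85% against 24 h IMP1 rose by 0.71 (SE 0.17) in M2 nsf1∆ and by 0.50 (SE 0.17, adjusted p = 0.016) in M2, and the M2 call was lost without M2 at 24 h replicate 2 (0.41, adjusted p = 0.12) or M2 at 85% replicate 3 (0.43, adjusted p = 0.053). IMP2 fell 2.37-fold (log2 change -1.24, SE 0.12) in M2 nsf1∆ and 2.43-fold (-1.28, SE 0.12) in M2.

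MAS1 and MAS2 encode the β and α subunits of the matrix peptidase that removes presequences, and both were highest at 20%. MAS1 gave 8.72 and 9.05 at 24 h, 9.32 and 9.45 at 20%, then 8.42, 8.43 and 8.22 at 85% in M2 nsf1∆, and 8.77 and 8.51, 9.45 and 9.12, and 8.24, 8.46 and 8.15 in M2. MAS2 gave 9.25 and 9.29, 9.85 and 10.05, and 9.78, 9.19 and 9.27 in M2 nsf1∆, and 9.06 and 8.90, 10.09 and 9.97, and 9.15, 9.40 and 9.19 in M2. The arrays at 20% lay above those of both other stages for each gene. At 20% against 24 h MAS1 rose by 0.50 (SE 0.17) in M2 nsf1∆ and by 0.65 (SE 0.17) in M2, and MAS2 by 0.68 (SE 0.18) and by 1.05 (SE 0.18). From 20% to 85% MAS1 fell by 1.03 (SE 0.15) in M2 nsf1∆ and by 1.00 (SE 0.15) in M2, and MAS2 by 0.53 (SE 0.16) and by 0.78 (SE 0.16). At 85% against 24 h MAS1 was lower in M2 nsf1∆ (-0.53, adjusted p = 0.0066), a call that was lost without M2 nsf1∆ at 24 h replicate 2 (-0.37, adjusted p = 0.095), and stood at -0.35 in M2 (adjusted p = 0.051). The difference between these changes, -0.18, did not pass (adjusted p = 0.73). The MAS1 rise at 20% was lost in M2 nsf1∆ without 24 h replicate 1 (0.34, adjusted p = 0.23), 20% replicate 1 (0.56, adjusted p = 0.075) or 20% replicate 2 (0.44, adjusted p = 0.16), and in M2 without 24 h replicate 2 (0.52, adjusted p = 0.061) or 20% replicate 1 (0.48, adjusted p = 0.066). The MAS2 rise and fall in M2 nsf1∆ were lost without 20% replicate 2 (0.58, adjusted p = 0.083, and -0.43, adjusted p = 0.10).

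Rises outnumbered falls among the members at the early step, and falls outnumbered rises at the late step. From 24 h to 20%, 10 members rose and 1 fell in M2 nsf1∆, and 10 rose and 3 fell in M2. Over all probe sets tested, 19.9% rose and 18.3% fell in M2 nsf1∆, and 26.5% rose and 26.4% fell in M2, and the members had fewer falls than these shares, a difference that was not tested. In both strains OM14, OM45, MIA40, TIM23, PAM16, TIM22, TIM54, MAS1 and MAS2 rose and SAM50 fell, and the remaining rise was that of TIM13 in M2 nsf1∆ and of TIM10 in M2. The change had the same sign in both strains for 31 of 36 members and for 81.5% of all probe sets. Of the 10 rises in M2 nsf1∆, those of TIM23 and PAM16 passed whichever array was left out. MIA40 was lost there without 24 h replicate 1 (0.36, adjusted p = 0.099) or 20% replicate 2 (0.39, adjusted p = 0.099), TIM54 without 24 h replicate 1 (0.59, adjusted p = 0.065) and TIM13 without 20% replicate 1 (0.51, adjusted p = 0.062). In M2 SAM37 and IMP2 fell as well, and the call of SAM37 (-0.39, adjusted p = 0.043) was lost when any of 7 arrays was left out, among them M2 at 20% replicate 2 (-0.21, adjusted p = 0.32). The count of rises in M2 nsf1∆ went down to 6 without 24 h replicate 1 or 20% replicate 1 and to 4 without 20% replicate 2.

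From 20% to 85%, 9 members rose and 18 fell in M2 nsf1∆ (8 and 19 without 85% replicate 3), and 8 rose and 16 fell in M2. Over all probe sets tested, 31.6% rose and 33.9% fell in M2 nsf1∆, and 33.1% rose and 31.9% fell in M2, with the members above these shares in falls and below them in rises, a difference that was not tested. The median change of the members was -0.34 in M2 nsf1∆ and -0.20 in M2, beside -0.03 and 0.01 over all probe sets. The change had the same sign in both strains for 33 of 36 members and for 88.1% of all probe sets. All 16 members that fell in M2 also fell in M2 nsf1∆, and they came from every side: TOM40, TOM70, TOM71, SAM35 and SAM50 of the outer membrane, TIM9, TIM13 and ERV1 of the intermembrane space, TIM17, TIM23, TIM50, PAM17, OXA1 and IMP2 of the inner membrane, and MAS1 and MAS2. In M2 the falls of SAM35 (-0.37), TIM13 (-0.40) and TIM17 (-0.27) depended on single arrays. SAM35 was lost without 20% replicate 1 or 2 or 85% replicate 1 or 3 (changes between -0.38 and -0.30), TIM17 without 20% replicate 1 or 2 or 85% replicate 1 or 2 (between -0.31 and -0.23), and TIM13 without 20% replicate 1 (-0.26) or 85% replicate 3 (-0.31). In M2 nsf1∆ SAM35 was lost without 20% replicate 1 (-0.44, adjusted p = 0.052), as was TIM17 (-0.32, adjusted p = 0.068). TIM8 and TIM44 fell in M2 nsf1∆ in addition, by 0.37 and by 0.48, and were lost without 20% replicate 1 (-0.33, adjusted p = 0.11) and 20% replicate 2 (-0.34, adjusted p = 0.059). TOM7, TIM12, PAM18 and TIM22 rose in both strains, TOM7 by 0.47 in M2 nsf1∆, where the call was lost without 20% replicate 2 (0.43, adjusted p = 0.053), and by 0.57 in M2. The count of rises in M2 nsf1∆ went down to 5 without 20% replicate 1 and to 4 without 20% replicate 2, while that of falls stayed between 15 and 19 when single arrays were left out.

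**Figure D5:**
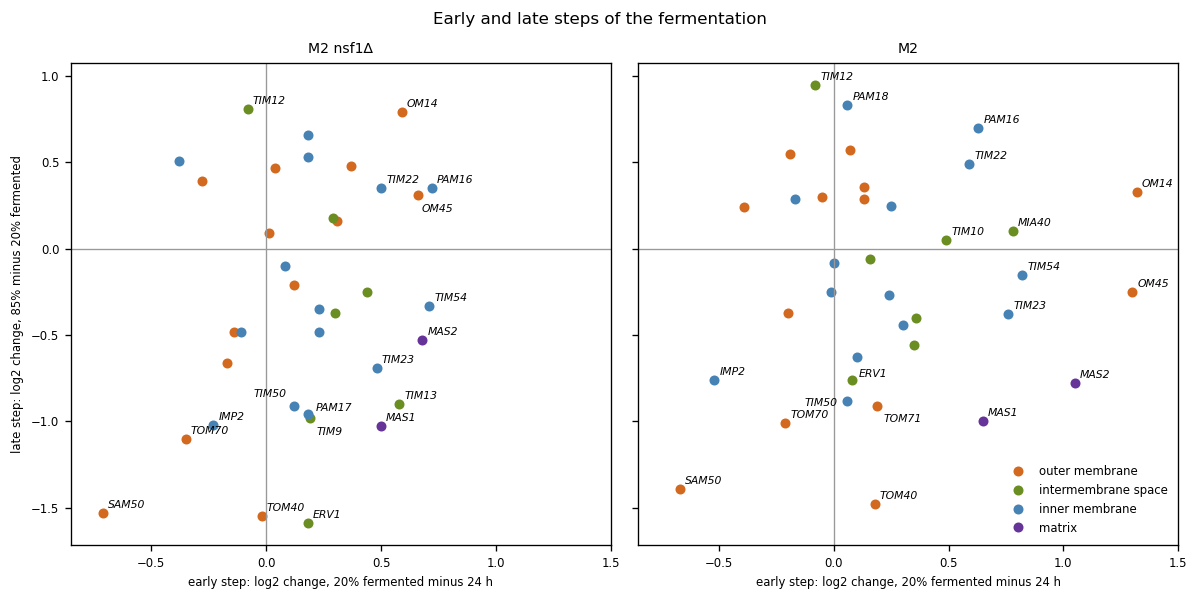
Log2 change of each import gene at the early step (x axis, 20% of sugars fermented minus 24 h) and at the late step (y axis, 85% minus 20%) in M2 nsf1∆ (left) and M2 (right), coloured by the place of the protein, 1 point per gene. TIM23, MAS1 and MAS2 lie at the lower right in both strains, SAM50 at the lower left, and TIM22 and PAM16 at the upper right.

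By their course over both steps, TIM13, TIM23, MAS1 and MAS2 rose and then fell in M2 nsf1∆, and TIM23, MAS1 and MAS2 did in M2. Among the members a fall at the late step alone was the most frequent course, with 13 in M2 nsf1∆ and 11 in M2. A rise at the late step alone was found for 7 members in M2 nsf1∆ and 6 in M2, and a rise at the early step alone for 4 and 5. The courses were not counted over all probe sets, so that these numbers do not set the members apart from other genes. No call at either step was made for TOM5, TOM6, TOM22, TIM10 and TIM18 in M2 nsf1∆, nor for TOM20, TIM8, TIM21, TIM44, TIM18 and IMP1 in M2. TIM18 was the gene without a call in both.

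Between the strains, calls were made at 85% and not at the earlier stages. The interaction terms given below compare the stages gene by gene, and none of the members called at 85% passed there. At 24 h and at 20% limma called 0 of 36 members, beside 0.127% and 0.346% of all probe sets. At an unadjusted p under 0.05, 1 and 2 members differed. Of 5498 probe sets, 328 were then higher and 211 lower in M2 nsf1∆ at 24 h, and 519 and 291 at 20%. At 85%, 3 members were lower in M2 nsf1∆ than in M2 and 0 were higher, which is near the 8.84% of probe sets called there in either direction. They were ERV1, TIM9 and TIM23, whose values at each array are given above. ERV1 at 85% was 1.49-fold lower in M2 nsf1∆ (log2 difference -0.58, 95% interval from -0.83 to -0.33, adjusted p = 0.013). TIM9 was 1.40-fold lower (-0.48, adjusted p = 0.029) and TIM23 was 1.28-fold lower (-0.35, adjusted p = 0.034). For each of them the 3 arrays of M2 nsf1∆ lay below the 3 of M2.

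Without M2 nsf1∆ at 85% replicate 3, the difference was -0.51 for ERV1 (adjusted p = 0.034) and -0.57 for TIM9 (adjusted p = 0.023), while TIM23 no longer passed (-0.30, adjusted p = 0.095). ERV1 passed whichever array was left out. TIM9 was lost without M2 at 85% replicate 2 (-0.47, adjusted p = 0.076) or 3 (-0.41, adjusted p = 0.09) and without M2 nsf1∆ at 85% replicate 1 (-0.41, adjusted p = 0.08) or 2 (-0.46, adjusted p = 0.08), and TIM23 without any of 7 arrays, with adjusted p up to 0.095. With all arrays kept, TIM23 was also lost with all probe sets (adjusted p = 0.059) and with quantile normalization again (-0.30, adjusted p = 0.072). A fit restricted to the groups compared lost both TIM23 (adjusted p = 0.093) and TIM9 (adjusted p = 0.078). For SAM50, TOM40, OM14, TOM70, IMP2 and PAM16, which changed more than 2-fold over the fermentation in both strains, no strain difference passed at 85%. The difference was -0.25 for PAM16 (95% interval from -0.54 to 0.03), whose arrays of M2 nsf1∆ lay below those of M2. It was -0.07 for TOM70 (from -0.41 to 0.26) and 0.13 for IMP2 (from -0.10 to 0.36). The difference was 0.01 for SAM50 (95% interval from -0.25 to 0.27), 0.01 for TOM40 (from -0.30 to 0.33) and 0.01 for OM14 (from -0.33 to 0.35).

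The courses of the strains were compared with interaction terms, the change in M2 nsf1∆ minus that in M2. For 20% against 24 h and for 85% against 20%, limma called 0 members, beside 1.60% and 0.200% of probe sets. At an unadjusted p under 0.05, 1 and 7 members differed. Of 5498 probe sets, 436 then had a positive and 418 a negative difference for 20% against 24 h, and 301 and 463 for 85% against 20%. For 85% against 24 h, 1 of 36 was called, beside 2.00% of probe sets. This was MIA40, whose rise in M2 nsf1∆ was smaller by 0.69 (SE 0.16, adjusted p = 0.046) than that in M2. In M2 nsf1∆ it stood at 10.88 and 11.05 at 24 h, above the 10.60 and 10.49 of M2, and at 85% its arrays lay below those of M2, while neither strain difference passed by itself. Without M2 nsf1∆ at 85% replicate 3, 0 of 36 were called. The MIA40 call was kept without M2 nsf1∆ at 24 h replicate 1 (-0.78, adjusted p = 0.036) and lost without any other single array, with values between -0.75 (without M2 at 24 h replicate 1) and -0.61 (without M2 nsf1∆ at 24 h replicate 2). The difference for ERV1 was -0.72 (adjusted p = 0.067).

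A further 19 genes act on the same routes without being part of the list above. Between 24 h and 85%, 7 of them rose and 5 fell in M2 nsf1∆, and 7 rose and 3 fell in M2, beside the 37.0% and 36.0% of all probe sets that rose and fell in M2 nsf1∆ and the 38.0% and 35.2% in M2. MDJ1, the J-protein of the matrix Hsp70, gave 9.70 and 9.77 at 24 h, 10.84 and 10.82 at 20%, then 11.80, 11.82 and 11.90 at 85% in M2 nsf1∆, and 9.94 and 9.38, 10.73 and 10.77, and 12.07, 11.78 and 11.86 in M2. It rose without overlap between stages, 4.29-fold in M2 nsf1∆ and 4.74-fold in M2. DJP1, a J-protein of the cytosol, rose 3.04-fold and 2.77-fold. MDM10, an outer membrane protein that works with the SAM complex, fell 2.25-fold in M2 nsf1∆ and 2.36-fold in M2, and ICP55, an aminopeptidase that trims imported proteins, fell 1.80-fold and 2.03-fold. The matrix chaperones, named after their values were seen, did not all move one way. SSC1, the Hsp70 of the motor, rose by 0.68 in M2 nsf1∆ and by 1.13 in M2, ZIM17, its escort protein, by 1.21 and by 0.88, and HSP10, a subunit of the matrix chaperonin, by 0.43 and by 0.63. MGE1, the nucleotide exchange factor of the Hsp70, changed by -0.16 (adjusted p = 0.22) in M2 nsf1∆ and by -0.02 (adjusted p = 0.86) in M2. HSP60, the chaperonin itself, fell by 0.31 (adjusted p = 0.048) in M2 nsf1∆, a call lost without any of 12 single arrays, among them 24 h replicate 2 (-0.27, adjusted p = 0.19), and changed by -0.03 (adjusted p = 0.85) in M2.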

How the data were processed

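The deposited table holds log2 intensities that the authors computed with RMA: background correction, quantile normalization across arrays, and 1 summary value per probe set. The RMA version is not given in the sources used here. Groups follow the strain and stage of each label. The labels speak of glucose where the paper speaks of sugars fermented. All sample columns were used (0 left out). Of 10928 probe sets, the 5498 that read 1 S. cerevisiae gene were tested. Genes were named through the platform annotation and RefSeq (assembly R64), and NSF1, listed as USV1, was found by its locus tag.

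A single limma model (version 3.58.1, R 4.3.3) with a mean for each of the 6 groups gave all contrasts (8 degrees of freedom from the residuals and 5.14 from the prior). P-values were adjusted by Benjamini-Hochberg, contrast by contrast, over 5498 probe sets, and calls were made under 0.05. The 2 or 3 arrays of a group limit the precision. Array values are given for the 3 members that rose and the 3 that fell most on each side of the membranes, for members that differed between strains or in an interaction, and for the pairs TOM70 and TOM71, MAS1 and MAS2, and IMP1 and IMP2. Others were named to account for every member. The members and lists were chosen with earlier results of these data known, so that counts over them are descriptions. In simulated data with 50 changed genes of each size among 5498, the strain comparison at 85% recovered 52% of changes of 0.5 and 98% of changes of 1. M2 at 85% against 24 h recovered 26% and 98%, with 168 calls. In the measured values of that contrast 2088 probe sets rose and 1938 fell. Recovery with that many changes was not tested, so that the 26% is not a rate for the measured contrast. The interaction of 85% against 24 h recovered 4% and 70%, so that most differences of 0.5 would be missed by it. Alternatives changed 1 choice at a time. They were a replicate block, removal of the dimmest 25% of probe sets, inclusion of every probe set, a shift of each array to a common median, a second quantile normalization, a variance trend with intensity, weights per array, a fit restricted to the groups compared, omission of single arrays, the methods' t-test, unadjusted p-values and a minimum change of 1. Figures were drawn with matplotlib 3.10.9.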

Additional observations from a re-analysis of the deposited data

Results flagged for a closer look

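The change of MIA40 between 24 h and 85% differed between the strains by a test of the difference itself, at -0.69 for M2 nsf1∆ minus M2 (SE 0.16, adjusted p = 0.046), with a change of 0.20 in M2 nsf1∆ and of 0.89 in M2. This call was lost without any single array other than M2 nsf1∆ at 24 h replicate 1 (values between -0.75 and -0.61), with all probe sets (adjusted p = 0.068), with quantile normalization again (-0.59, adjusted p = 0.099), with array weights (-0.62, adjusted p = 0.05) and with the arrays of the contrast alone (adjusted p = 0.088). PCP1, which encodes the rhomboid protease of the inner membrane and is no member of the list, was also singled out by this test, and it was chosen for description after its values were seen. It gave 9.11 and 9.60 at 24 h, 9.40 and 9.57 at 20%, then 7.47, 7.34 and 7.48 at 85% in M2 nsf1∆, and 8.98 and 8.64, 9.67 and 9.34, and 8.00, 8.11 and 7.86 in M2. Its fall at 85% against 24 h was larger in M2 nsf1∆, at -1.93, than in M2, at -0.82, a difference of -1.11 (SE 0.23, adjusted p = 0.032). At 24 h PCP1 stood higher in M2 nsf1∆ than in M2 by 0.55, which did not pass by itself (adjusted p = 0.31). At 85% PCP1 was lower in M2 nsf1∆ than in M2 by -0.56 (adjusted p = 0.034) on the log2 scale, a call that was lost without M2 at 85% replicate 1 or 2 or any of the 3 arrays of M2 nsf1∆ at 85% (adjusted p between 0.055 and 0.11). The PCP1 difference of changes was lost without M2 at 24 h replicate 2 (-0.94, adjusted p = 0.17), M2 nsf1∆ at 24 h replicate 2 (-0.86, adjusted p = 0.16), M2 at 85% replicate 1 (-1.10, adjusted p = 0.072) or 2 (-1.05, adjusted p = 0.065), or M2 nsf1∆ at 85% replicate 2 (-1.06, adjusted p = 0.065). With the arrays of the contrast alone that difference of changes was lost as well (adjusted p = 0.053). The PCP1 call between the strains at 85% was also lost with all probe sets (adjusted p = 0.052) and with the methods' t-test after adjustment (adjusted p = 0.22). No group had enough arrays for a test of single outlying arrays.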

How the results depend on the processing

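Of 128 changes of members past the threshold over the 12 contrasts, 111 passed under every refit and t-test that kept all arrays. Of the 128, 91 also passed whichever array was left out. The unadjusted p-values and the minimum change of 1 were applied to counts alone and do not enter these numbers. None of the 128 changes, or of the 67 changes of other import genes, reversed under any alternative run. With the replicate block, the members that fell in M2 nsf1∆ at 20% against 24 h were 2 in place of 1, and 8 calls were lost, while no other count moved by over 1.5 times. Of 31 same-numbered pairs of arrays, 9 had residuals correlated over 0.1, with a range from -0.512 to 0.574. In a group of 2 arrays the residuals mirror each other, so that pairs between such groups repeat 1 value. The 31 pairs are therefore not separate observations. The main fit did not treat the numbers as pairs. Between the strains at 85%, same-numbered pairs ran from 0.027 to 0.574 and differently numbered pairs from -0.455 to 0.363. A shared replicate effect at that stage is thus possible. With the replicate block, ERV1, TIM9 and TIM23 still passed between the strains at 85% (adjusted p = 0.011, 0.021 and 0.035). With the arrays of a contrast alone, 2 members fell in that comparison too, 1 member was lower in M2 nsf1∆ at 85% and 0 differed in the change from 24 h to 85%. Array weights gave 1 higher and 5 lower members in M2 nsf1∆ at 85%, 1 lower in the interaction of 85% against 20% and 2 in that of 85% against 24 h. That last count of 1 was 0 with all probe sets or quantile normalization again, and 2 without dim probe sets or with an intensity trend, and the cause was not tested. The methods' t-test at 85% gave 0 lower members after Benjamini-Hochberg adjustment and 3 higher and 6 lower at its unadjusted threshold. At an unadjusted p under 0.05, limma gave 1 higher in M2 nsf1∆ at 24 h, 1 higher and 1 lower at 20%, 4 higher and 8 lower at 85%, and 1, 7 and 5 lower in the interactions of 20% against 24 h, 85% against 20% and 85% against 24 h. Over all 5498 probe sets, that unadjusted threshold gave 716 higher and 703 lower at 85%, and 426 higher and 525 lower in the last of these interactions. With a minimum change of 1 on the log2 scale, by construction fewer genes passed. In M2 nsf1∆ 0 rose and 0 fell at the early step, 0 rose and 6 fell at the late step, and 2 rose and 5 fell over the whole. In M2 3 rose and 0 fell, 0 rose and 4 fell, and 4 rose and 4 fell. No member was then lower at 85% or in the last interaction (0 each). Apart from the unadjusted limma p-values, counts over all probe sets under these alternatives are not given here. The member counts under the alternatives thus do not set the members apart from other genes. Leaving out each array gave between 1 and 3 lower members in M2 nsf1∆ at 85% (1 without M2 replicate 2 or 3 or M2 nsf1∆ replicate 2), between 4 and 10 rises and 1 and 2 falls at its early step, between 4 and 10 rises at its late step, and between 0 and 1 lower in the interactions of 20% and of 85% against 24 h. The brightest probe set could not serve as an alternative, because each member has 1 probe set.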
